A study of Mus musculus with 27 samples.

Results

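Day 4 (D4) after cardiotoxin (CTX) injury was examined here as 1 comparison, Gsdme-knockout (KO) muscle against WT muscle, with 3 libraries in each group, 6 of the 27 libraries of the series. CTX is a snake-venom toxin that lyses muscle fibres and leaves satellite cells, the stem cells of muscle, able to rebuild them. WT-CTX-Day4 mice carried intact Gsdme and KO-CTX-Day4 mice, titled KO and called a knockdown in another label, carried the modified gene. Both groups received CTX and were sampled at the same time. Per the study's methods all mice were male, WT mice were C57BL/6J, and RNA came from the injured gastrocnemius, while age was not given in the sources used here. The other libraries were WT and KO muscle at D1, D7 and D14 and 3 uninjured WT muscles, the contralateral limb of D1 mice, which were quantified in a separate table and serve below as context only. Of 55852 entries in the table, 14209 had at least 1 TPM, a read share corrected for gene length, in at least 3 of the 6 libraries and were tested.

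Gasdermin E, the protein made by Gsdme, is cut by caspase-3 and its freed part forms pores in the plasma membrane, a lytic cell death called pyroptosis that lets mature interleukin-1β and interleukin-18 out of the cell. In CTX-injured muscle neutrophils arrive first, monocyte-derived macrophages then clear debris, satellite cells divide and fuse into new fibres that carry embryonic and neonatal myosins, and fibro-adipogenic progenitors (FAPs), the stromal cells of muscle, lay down matrix and can turn into fat cells. D4 falls in the phase in which macrophages are abundant and the first new fibres appear. The comparison asks how the loss of Gsdme alters gene expression in that phase.

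Gsdme itself was low in both groups and lower in each KO library than in each WT library. Here and below, values of a group are given in the order of replicates 1, 2 and 3, and where both groups are given without a name, WT comes first. The gene stood at 3.02, 2.67 and 2.63 TPM in WT and at 1.36, 1.00 and 1.64 TPM in KO, a mean of 2.77 ± 0.215 TPM against 1.33 ± 0.321 TPM (SD, n = 3). On the log2(TPM + 1) scale used for all differences, KO minus WT was -0.70 with a standard error (SE) of 0.22 and an adjusted p of 0.54 (limma). It was -0.59 without KO replicate 2, a library described below. An exact two-sided permutation test gave p = 0.1, the smallest that 3 against 3 libraries allow. Uninjured muscle held 1.85 ± 0.43 TPM. The labels do not say which part of the gene was deleted, so counts that remained in the KO libraries could not be placed within it.

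KO replicate 2 stood apart from the other 5 libraries and WT replicate 1 deviated in the opposite direction. The first principal component took 72.4% of the variance, with scores of 101.4 for KO replicate 2, -71.3 for WT replicate 1 and -18.8 to 4.4 for the other 4. KO replicate 2 had 12961 entries at 1 TPM or more against 13960 to 14704 in the rest, gave 51.1% of its TPM to its 50 most abundant genes against 25.4% to 39.3%, and correlated with the other KO libraries at r = 0.912 to 0.924, while those correlated with each other at 0.977 across genes. Muscle identity was clear in all 6, with Acta1 and Ckm among the abundant genes, and epidermal keratins were near 0. Fitted differences and the medians of gene lists are therefore given with all 6 libraries and without KO replicate 2. A comparison without both deviating libraries was added after the data were seen.

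No gene passed an adjusted p of 0.05 in the comparison of 3 KO with 3 WT libraries, and the lowest adjusted p was 0.54 (limma); 0 of 14209 is 0% called. An unadjusted p below 0.05 was reached by 150 genes with a higher KO mean (1.06%) and 405 with a lower one (2.85%), 555 together (3.91%). Without KO replicate 2 the count called was again 0, with 102 higher (0.718%) and 191 lower (1.34%), 293 together (2.06%). Leaving out each library in turn gave 0 genes called every time, with 94 to 217 higher and 144 to 2018 lower at an unadjusted p under 0.05, the most lower genes without KO replicate 1 and the fewest without WT replicate 1. The values of the 2 groups did not overlap for 372 genes higher in KO (2.62%) and 1702 lower in KO (12%), 2074 together (14.6%), and without KO replicate 2 for 640 (4.5%) and 1845 (13%), 2485 together (17.5%). A difference above 0 was measured in 21.6% of genes, or 31.4% without KO replicate 2, and the median over all genes was -0.30. After median-of-ratios scaling the median was 0.0045. Every difference below is unscaled unless stated, and can be read against the shift of -0.30, or of -0.12 without KO replicate 2. The sections below therefore describe levels, and the words higher and lower refer to measured means and to overlap, not to a passed test. Samples of a group are biological triplicates per the labels.

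**Figure D1:**
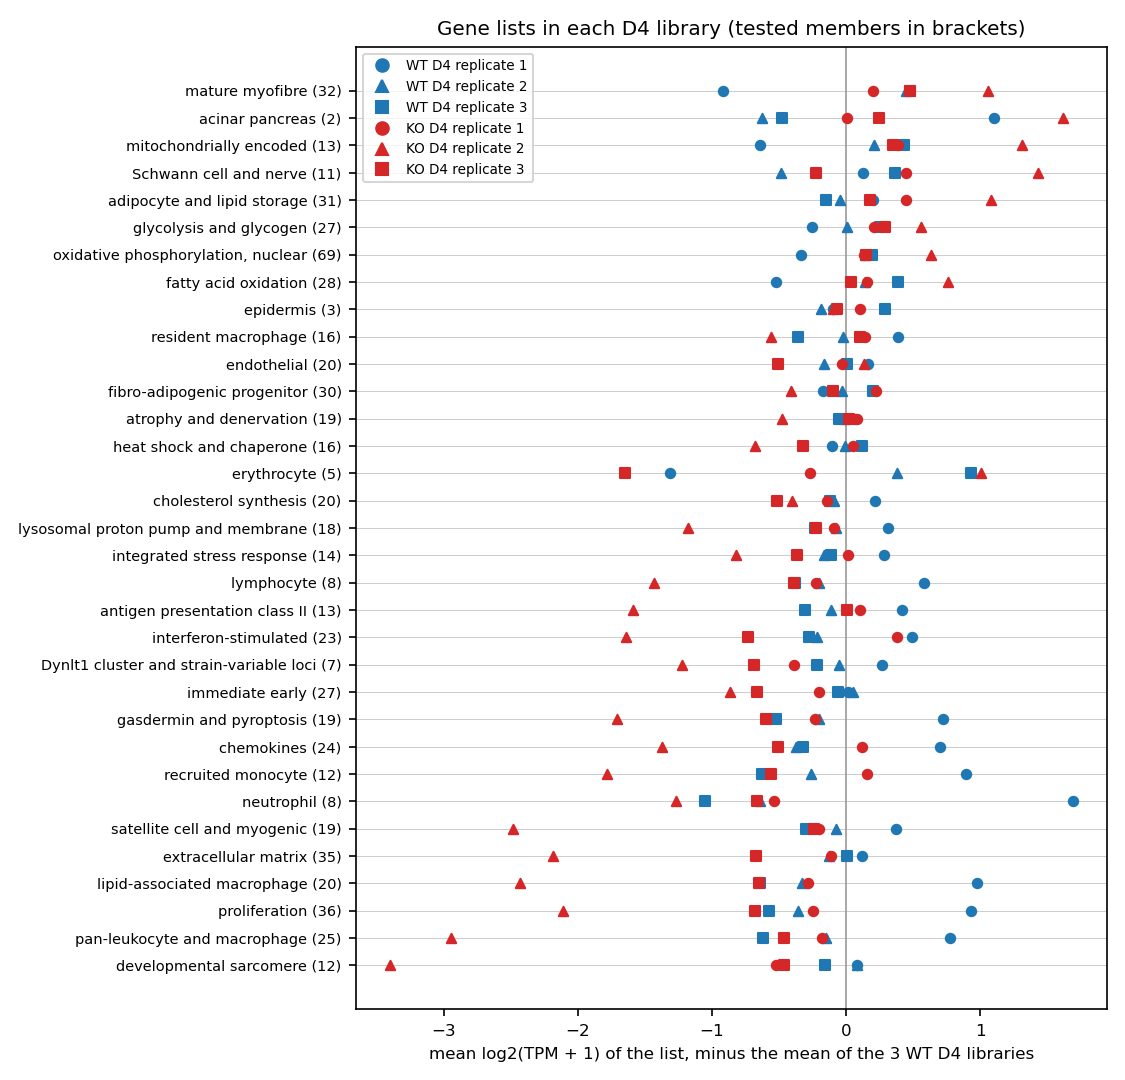
Mean log2(TPM + 1) of each of the 33 gene lists in the 6 D4 libraries, relative to the mean of the 3 WT libraries (x axis); blue symbols are WT, red symbols KO, and circle, triangle and square are replicates 1, 2 and 3. KO replicate 2 lies to the far left for developmental sarcomere (12 tested genes) and pan-leukocyte genes and to the right for mature myofibre genes, while the immediate early list is among those with all 3 KO libraries left of all 3 WT libraries.

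Cells transcribe immediate early genes within minutes of growth factor, stress or injury signals, without new protein synthesis. Their median difference in KO muscle was below that of all genes, also without the deviating libraries. Their share with a lower KO mean was close to that of all genes. Of 27 genes, all tested, 22 had a lower KO mean, against 78.4% of all genes, and 5 a higher one. The groups did not overlap for 10 that were lower, against 12% of all genes, and for 1 that was higher, Nr4a3, against 2.62%. At an unadjusted p under 0.05, 10 were lower, against 2.85% of all genes, and without KO replicate 2 there were 7, against 1.34%. The median difference was -0.73, and -0.50 without KO replicate 2, where the medians of all genes were -0.30 and -0.12. Without both deviating libraries it was -0.35.

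Egr1, a zinc-finger transcription factor induced by serum and injury, stood at 19.5, 43.03 and 39.95 TPM in WT and 12.6, 5.20 and 9.80 TPM in KO. The difference was -1.78 (SE 0.41), and -1.46 without KO replicate 2. Every KO library lay below the lowest WT library, which was replicate 1. In the comparison of 2 with 2 libraries added after the data were seen, Egr1 was 1 of 6 entries called (adjusted p = 0.044, limma). Fos, the AP-1 subunit, had 17.8, 29.9 and 31.6 TPM in WT and 13.6, 4.66 and 7.09 TPM in KO, a difference of -1.61 (SE 0.40) and of -1.29 without KO replicate 2. Its AP-1 partner Junb read 119, 78.4 and 82.4 TPM against 49.6, 18.6 and 34.4 TPM, a difference of -1.50 (SE 0.37), or -1.13 without KO replicate 2. In both, the 3 KO values sat under the 3 WT values. Ier2, a short-lived nuclear protein, had 32.3, 44.03 and 41.4 TPM in WT and 20.8, 15.04 and 15.6 TPM in KO and differed by -1.15 (SE 0.23). For Ier2 the KO replicates 2 and 3 were nearly equal, and leaving replicate 2 out gave -1.07. Fosb, a further AP-1 subunit, overlapped, with 1.15, 4.70 and 2.46 TPM in WT against 1.41, 0.99 and 0.7 TPM in KO. Uninjured muscle held less of each of these, with Egr1 at 3.01 ± 0.619 TPM and Junb at 7.86 ± 1.17 TPM.

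Promoter sequence was available for 20 of the 27 genes in RefSeq's GRCm38.p6 set, and 3 are shown. Fos, Junb and Zfp36 are among the 10 members lower in KO without overlap, and others of the 10 are not shown. All 3 promoters hold a marked match. Each runs 5′ to 3′ on the gene's strand, from 250 bases before to 20 bases after the annotated start. Capitals mark matches to the TATA box letters TATAAA, the shortened cAMP-response element TGACGT, or the CArG box by which serum response factor binds. Both strands were searched, with no overlap among the matches shown. The TATAAA match of Junb begins at the annotated start itself, whereas that of Fos lies before the start. Whether the Junb match acts as a TATA box was not tested.
Fos, chr12:85473640-85473909, plus strand: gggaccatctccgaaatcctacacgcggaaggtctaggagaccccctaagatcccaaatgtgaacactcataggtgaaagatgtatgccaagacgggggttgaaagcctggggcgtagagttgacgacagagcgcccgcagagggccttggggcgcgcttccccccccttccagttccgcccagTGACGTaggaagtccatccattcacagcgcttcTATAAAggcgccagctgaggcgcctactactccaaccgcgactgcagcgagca
Junb, chr8:84978729-84978998, minus strand: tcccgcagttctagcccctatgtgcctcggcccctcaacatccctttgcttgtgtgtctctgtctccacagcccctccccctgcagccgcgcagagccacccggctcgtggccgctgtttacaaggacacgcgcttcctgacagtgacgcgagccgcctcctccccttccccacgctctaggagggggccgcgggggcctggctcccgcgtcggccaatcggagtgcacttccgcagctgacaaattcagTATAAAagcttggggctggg
Zfp36, chr7:28379209-28379478, minus strand: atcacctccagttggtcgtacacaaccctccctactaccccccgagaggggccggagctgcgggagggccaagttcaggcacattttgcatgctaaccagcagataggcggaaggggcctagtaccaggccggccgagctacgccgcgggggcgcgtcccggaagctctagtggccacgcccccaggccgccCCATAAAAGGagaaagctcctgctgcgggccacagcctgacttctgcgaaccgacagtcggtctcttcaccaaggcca
TATAAA was found for 4 of the 20 genes and in 13.6% of all 32851 promoters, in windows that reach 50 bases past the start, TGACGT for 7 of 20 against 7.51%, and the CArG box for 2 of 20, Egr2 and Zfp36, against 1.63%. A gene was counted if any of its promoters held the motif, while the percentages count single promoters. The counts and percentages are therefore unlike measures, and no excess is read from them. The full element TGACGTCA was found in Dusp1 and Btg2, 2 of 20 against 1.79%, and TGANTCA with C or G at the open position in 0 of 20 against 5.20%. Zfp36, an RNA-binding protein that destabilises cytokine mRNAs and was named after its values were seen, stood at 24.9, 22.4 and 23.8 TPM in WT and 15.6, 12.3 and 11.6 TPM in KO, a difference of -0.81 (SE 0.21), or -0.77 without KO replicate 2.

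**Figure D2:**
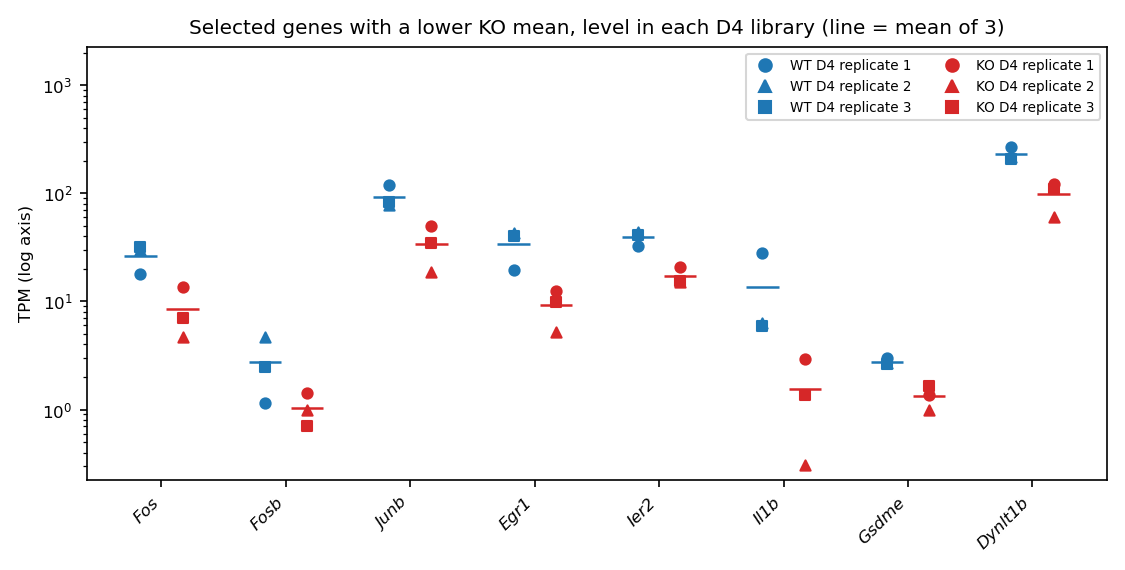
TPM on a log axis of 8 genes with a lower KO mean in each of the 6 D4 libraries, WT blue and KO red, circle, triangle and square for replicates 1, 2 and 3; horizontal lines are means of 3. Fos, Junb, Egr1, Ier2, Il1b, Gsdme and Dynlt1b show no overlap between groups, while Fosb does.

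Among pyroptosis genes, 19 of the 25 listed were tested, all 19 had a lower KO mean, against 78.4% of all genes, and 5 were lower without overlap, against 12%. The median was -0.79, -0.36 without KO replicate 2 and -0.013 without both deviating libraries. Il1b, the cytokine released through gasdermin pores, read 28.2, 6.35 and 5.98 TPM in WT and 2.95, 0.31 and 1.35 TPM in KO. WT replicate 1 was far above the others, and the highest KO value was still below the lowest WT value. The difference was -2.32 (SE 0.64), or -1.91 without KO replicate 2. Casp9, the initiator caspase of the mitochondrial pathway, had 12.8, 9.11 and 8.83 TPM in WT and 7.00, 3.15 and 6.21 TPM in KO without overlap, a difference of -0.84 (SE 0.32), or -0.55 without KO replicate 2. The gasdermin of the inflammasome pathway, Gsdmd, overlapped at 38.99, 20.5 and 16.5 and 21.02, 10.5 and 14.9 TPM. Casp1, the protease that matures interleukin-1β, overlapped at 12.7, 6.27 and 1.85 and 6.63, 0.73 and 4.45 TPM and differed by -0.026 without KO replicate 2. Il18, the second cytokine of the pathway and named for its role rather than by rank, was at 12.6, 6.56 and 4.85 TPM in WT and 7.25, 1.27 and 4.37 TPM in KO, with overlap. Its difference was -0.86 (SE 0.53), and leaving out each library in turn gave -1.27 to -0.34, the latter without KO replicate 2.

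Genes of macrophages and other leukocytes were lower in KO replicate 2 than in any other library, whereas KO replicates 1 and 3 lay within or close to the WT range. All 25 pan-leukocyte and macrophage genes had a lower KO mean, against 78.4% of all genes, with a median of -1.17. Only Cd14 did not overlap, whereas 12% of all genes were lower without overlap. Without KO replicate 2 the median was -0.32 and without both deviating libraries 0.067. Their summed level was 11403, 6929 and 4982 TPM in WT and 6850, 893 and 5627 TPM in KO. In bulk tissue, fewer cells of a type and less RNA per cell cannot be told apart.

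Adgre1, which encodes the macrophage antigen F4/80, was at 138, 85.6 and 63.5 TPM in WT and 87.4, 12.7 and 74.7 TPM in KO. Ptprc, the leukocyte antigen CD45, was at 38.8, 16.96 and 9.45 TPM in WT and 16.6, 1.57 and 14.8 TPM in KO. Itgam, the integrin CD11b, was at 64.7, 22.7 and 17.1 TPM in WT and 23.3, 3.88 and 18.8 TPM in KO. In all 3 genes KO replicates 1 and 3 lay between WT values. Cd14, the lipopolysaccharide co-receptor, read 54.6, 34.8 and 31.96 TPM in WT and 29.6, 6.33 and 27.99 TPM in KO. The 12 tested genes of recruited monocytes had a median of -0.87 (-0.23 without KO replicate 2). Ccr2, the receptor by which monocytes leave the marrow, was at 33.8, 16.4 and 8.59 TPM in WT and 19.1, 1.58 and 14.7 TPM in KO. Their surface marker Ly6c2 was at 45.7, 13.1 and 9.22 TPM against 18.6, 3.64 and 7.06 TPM, and both genes overlapped. The 20 genes of lipid-associated macrophages, the phagocytes that handle cell debris, had a median of -1.01 and of -0.33 without KO replicate 2. Trem2, their lipid receptor, was at 274, 169 and 112 TPM in WT and 137, 9.42 and 109 TPM in KO. Spp1, the secreted matricellular protein osteopontin, read 1312, 197 and 94.2 TPM against 206, 17.4 and 112 TPM. Gpnmb, a lysosome-linked glycoprotein, read 137, 76.1 and 60.04 TPM against 74.4, 3.81 and 66.6 TPM, and both genes had the highest value in WT replicate 1 and the lowest in KO replicate 2.

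Neutrophil genes separated WT replicate 1 from the rest. S100a8, a subunit of calprotectin, was at 67.2, 2.83 and 1.40 TPM in WT and 2.63, 0.4 and 2.35 TPM in KO, with WT replicate 1 far above the other 5 libraries. Its partner S100a9 was at 119.6, 3.84 and 1.26 and 4.31, 2.13 and 2.13 TPM, again with WT replicate 1 the highest. The median of the 8 tested genes was -0.91, -0.64 without KO replicate 2 and 0.23 without both deviating libraries. Of 13 class II antigen presentation genes all had a lower KO mean, against 78.4% of all genes (median -0.58). Without KO replicate 2, however, 10 had a higher one, against 31.4% of all genes (median 0.071). H2-Aa was at 729.9, 525 and 458 TPM in WT and 638, 127 and 648 TPM in KO. The 8 tested lymphocyte genes had a median of -0.58 (-0.25 without KO replicate 2), and Gzma, a granzyme of cytotoxic lymphocytes, did not overlap at 13.3, 5.71 and 5.97 TPM in WT and 4.42, 0.76 and 3.70 TPM in KO. The 23 interferon-stimulated genes had a median of -0.67, or -0.21, and none separated the groups, against 14.6% of all genes. Irf7, the master factor of that response, read 121, 75.9 and 67.03 and 90.00, 16.6 and 46.5 TPM.

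Tissue-resident macrophage genes did not follow the leukocyte list. Their 16 tested members had a median of -0.11, 0.12 without KO replicate 2 and 0.25 after median-of-ratios scaling, so the direction of this list depended on library and scaling. Lyve1, a hyaluronan receptor of resident macrophages and of lymphatic vessels, was the member without overlap, at 5.77, 2.79 and 5.85 TPM in WT and 10.6, 9.91 and 6.35 TPM in KO, a difference of 0.80 (SE 0.33), or 0.72 without KO replicate 2. The scavenger receptor Cd163 stood at 16.4, 12.8 and 8.10 TPM in WT and 14.8, 9.29 and 16.6 TPM in KO, with overlap. The mannose receptor Mrc1 also overlapped, at 67.03, 34.5 and 21.5 and 38.2, 8.71 and 27.6 TPM. The eotaxin Ccl24 was likewise higher without overlap at 5.67, 5.89 and 6.61 TPM in WT and 15.1, 9.22 and 8.23 TPM in KO, a difference of 0.71 (SE 0.28), or 0.79 without KO replicate 2. Among the 24 tested chemokines, 18 had a lower KO mean, against 78.4% of all genes, and 6 a higher one (median -0.80, -0.39 without KO replicate 2). Ccl2, which recruits monocytes, overlapped at 104, 14.00 and 8.97 and 22.5, 1.35 and 9.13 TPM. Cxcl12, which retains progenitors, read 172, 111 and 117 TPM in WT and 97.9, 77.01 and 71.96 TPM in KO and did not overlap. Ccl22, a macrophage-derived chemokine that attracts T cells, did not overlap either, at 3.81, 2.88 and 2.02 and 2.00, 0.17 and 1.06 TPM.

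**Figure D3:**
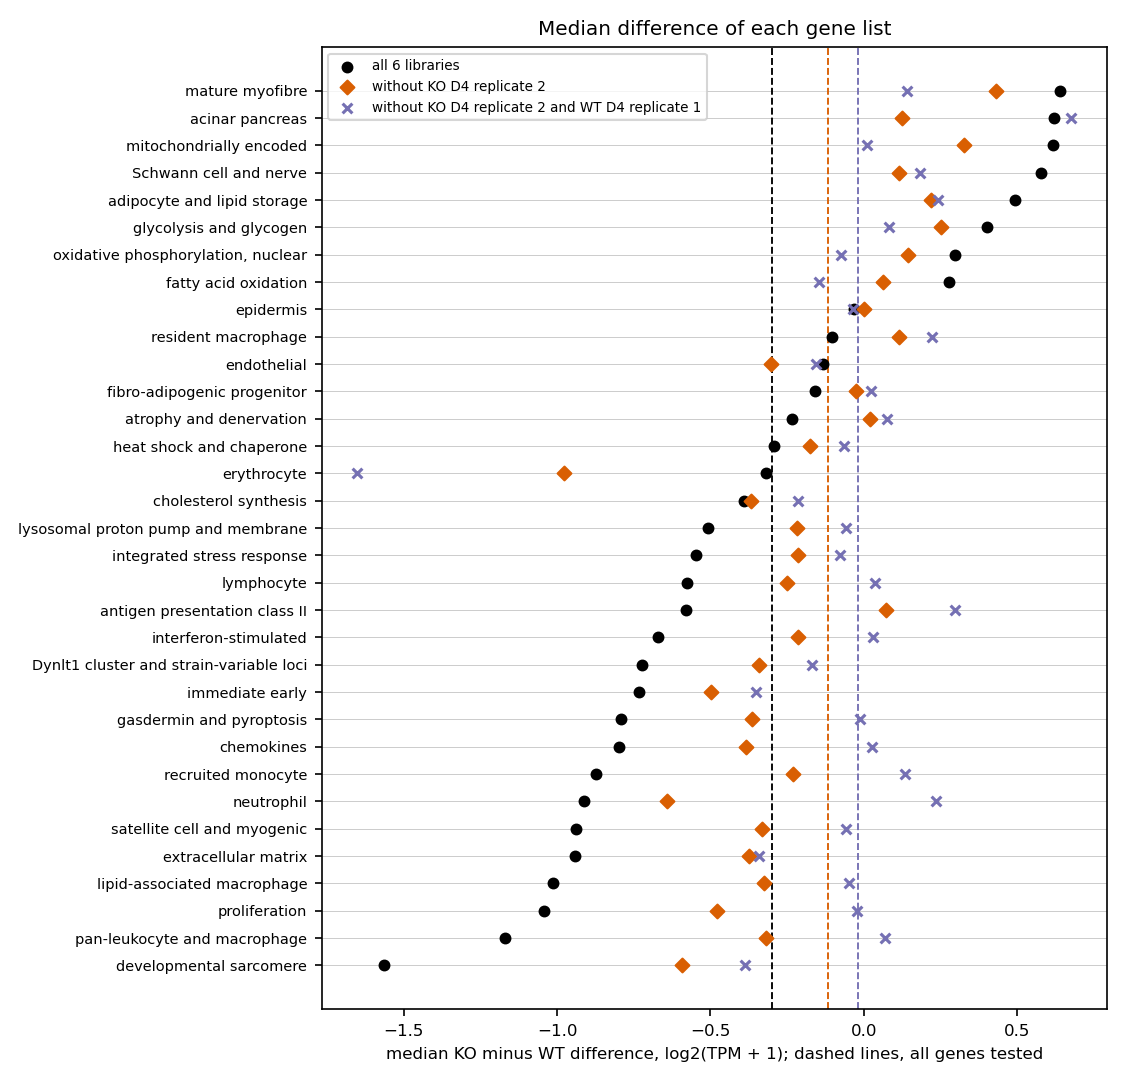
Median KO minus WT difference on the log2(TPM + 1) scale of each gene list with all 6 libraries (black circles), without KO replicate 2 (orange diamonds) and without both KO replicate 2 and WT replicate 1 (purple crosses); dashed lines are the medians of all tested genes. Most immune lists and the proliferation and myogenic lists move toward 0 as libraries are left out. Pan-leukocyte genes go from -1.17 through -0.32 to 0.07. The class II list passes 0 and ends at 0.30, and the resident macrophage list moves from -0.11 to 0.22. The immediate early list stays below the dashed lines.

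Genes of new fibres were lower in KO muscle, by a large amount in replicate 2 and by a modest one in replicates 1 and 3. Of 12 developmental sarcomere genes 11 had a lower KO mean, against 78.4% of all genes, and 7 were lower without overlap, against 12%, with a median of -1.56, -0.59 without KO replicate 2 and -0.39 without both deviating libraries. Myh3, the embryonic myosin heavy chain, was at 523, 471 and 397 TPM in WT and 259, 3.58 and 268 TPM in KO. The difference was -2.75 (SE 1.46) with all libraries and -0.80 without KO replicate 2, whose value was closer to that of uninjured muscle (0.657 ± 0.228 TPM) than to that of any other D4 library. Myh8, the neonatal heavy chain, read 219, 352 and 275 TPM in WT and 222, 7.29 and 255 TPM in KO and overlapped. The embryonic light chain Myl4 did not overlap at 1679, 1785 and 1988 and 1549, 76.7 and 1577 TPM. Slow troponin T, Tnnt1, stood at 677, 1092 and 648 and 471, 345 and 521 TPM and differed by -0.83 (SE 0.31), or -0.66 without KO replicate 2, without overlap. Nestin, the intermediate filament of immature fibres encoded by Nes, was at 87.4, 47.96 and 52.95 and 43.8, 14.7 and 33.5 TPM, also without overlap.

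Satellite cell and myogenic genes showed the same arrangement of libraries. Of 19 tested genes 18 had a lower KO mean, against 78.4% of all genes, and 8 were lower without overlap, against 12% (median -0.94). Leaving out KO replicate 2, 14 had a lower and 5 a higher KO mean, against 31.4% of all genes higher (median -0.33). In that setting 8 were lower without overlap, against 13% of all genes, and 2 higher, against 4.5%. The median without both deviating libraries was -0.06. Pax7, the marker of satellite cells, was at 5.90, 5.84 and 6.05 TPM in WT and 4.25, 1.00 and 4.76 TPM in KO. The commitment factor Myod1 was at 169, 81.1 and 85.4 TPM in WT and 58.96, 15.1 and 63.4 TPM in KO, a difference of -1.43 (SE 0.57), or -0.78 without KO replicate 2. Neither gene's KO values reached the WT range. All 36 proliferation genes had a lower KO mean, against 78.4% of all genes, and also without KO replicate 2 (medians -1.04 and -0.48), but the median was -0.021 without both deviating libraries. Mki67, the Ki-67 antigen of cycling cells, read 12.6, 3.58 and 2.42 and 4.73, 0.48 and 3.38 TPM. Top2a, topoisomerase IIα, read 38.4, 13.2 and 8.78 and 15.8, 1.80 and 12.4 TPM. In both, KO replicates 1 and 3 lay inside the WT range. Mcm7, a subunit of the replication helicase, narrowly did not overlap at 38.2, 19.04 and 20.2 and 19.01, 6.10 and 14.1 TPM.

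KO replicate 2 was set against the WT libraries of other days. Its developmental sarcomere mean of 4.69 log2 units lay above D1 (2.70 to 3.91) and D14 (3.16 to 4.05) and below D7 (5.55 to 6.66). Its pan-leukocyte mean of 4.05 lay below D7 (5.43 to 5.82) and within D14 (2.82 to 4.25). Its mature myofibre mean of 11.1 was within D14 (11.1 to 11.2). This library also held the most nerve and exocrine pancreas RNA, as described below. The D7 and D14 libraries were not tested against it.

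**Figure D4:**
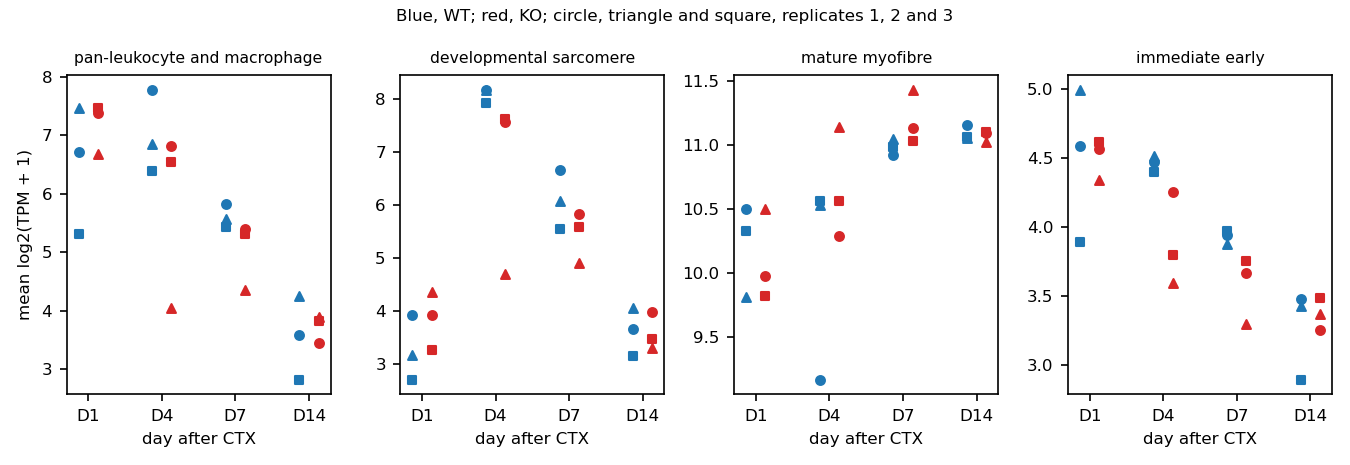
Mean log2(TPM + 1) of 4 gene lists in the 24 injured libraries by day after CTX (days evenly spaced), WT blue and KO red. At D4, KO replicate 2 (red triangle) lies at 4.05 for pan-leukocyte genes and at 4.69 for developmental sarcomere genes, apart from the other 5 libraries, and immediate early genes are lower in KO at D4 and D7.

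Matrix genes were lower by mean, and the median of FAP genes lay between 0 and that of all genes. Of 35 extracellular matrix genes 34 had a lower KO mean, against 78.4% of all genes, and 8 were lower without overlap, against 12% (median -0.94, -0.38 without KO replicate 2, -0.34 without both). Col1a1, the main fibrillar collagen chain, overlapped at 2787, 2338 and 3039 and 2610.0, 585 and 1541 TPM. Adamts4, a proteoglycan-cleaving protease, was at 18.4, 12.7 and 16.8 TPM in WT and 12.5, 1.29 and 5.80 TPM in KO, a difference of -1.50 (SE 0.60), or -0.81 without KO replicate 2. Timp1, an inhibitor of matrix proteases, was at 247, 123.14 and 128 and 116, 14.9 and 68.9 TPM, also without overlap. The 30 FAP genes had a median of -0.16, -0.026 without KO replicate 2 and 0.20 after scaling, a sign that changed with the setting. Pdgfra, their defining receptor, read 31.5, 28.1 and 30.9 and 32.9, 10.9 and 25.04 TPM with overlap. Pi16, a marker of their progenitor state, read 43.1, 54.9 and 87.9 and 103, 78.6 and 63.7 TPM and also overlapped. Myoc and Cpe had higher KO values without overlap. Myoc, a secreted glycoprotein, stood at 7.28, 13.8 and 25.5 TPM in WT and 33.9, 48.6 and 29.5 TPM in KO, a difference of 1.34 (SE 0.43), or 1.14 without KO replicate 2. Cpe, a carboxypeptidase that processes prohormones, stood at 52.1, 90.4 and 84.1 and 114, 108 and 136 TPM, a difference of 0.69 (SE 0.27), or 0.75 without KO replicate 2. Of 20 endothelial genes 13 had a lower KO mean, against 78.4% of all genes, and the median of -0.13 (-0.30 without KO replicate 2) became 0.22 after scaling. Pecam1, the junction protein CD31, overlapped at 75.1, 58.2 and 73.1 and 60.6, 73.02 and 40.7 TPM. Aplnr, the apelin receptor of sprouting vessels, did not, at 37.2, 29.7 and 34.8 and 22.97, 11.6 and 17.04 TPM with a difference of -0.98 (SE 0.28), or -0.74 without KO replicate 2.

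Mature fibre genes were higher in KO by mean. Of 32 genes 30 had a higher KO mean, against 21.6% of all genes, with a median of 0.64, 0.43 without KO replicate 2 and 0.14 without both deviating libraries. Only Tmod4, which caps thin filaments, did not overlap, whereas 2.62% of all genes were higher without overlap. Tmod4 was at 138, 291 and 260.3 TPM in WT and 311, 410.3 and 396 TPM in KO. Acta1, skeletal actin, was at 13697, 28614 and 28473 TPM in WT and 20104, 32907 and 33471 TPM in KO. Ckm, muscle creatine kinase, was at 3163, 6485 and 7887 TPM in WT and 5820.0, 16149 and 10861 TPM in KO. The fast myosin Myh4 was at 1564, 2631 and 2448 and 2566, 5362 and 5539 TPM. In each of the 3, WT replicate 1 was the lowest library. Mybpc2, fast myosin-binding protein C, read 279, 552 and 576 and 550.3, 1261 and 1258 TPM, with KO replicate 1 inside the WT range. The 13 mitochondrially encoded genes all had a higher KO mean, against 21.6% of all genes (median 0.61, 0.33 without KO replicate 2, 0.0086 without both). mt-Co2, a cytochrome oxidase subunit, was at 89.4, 102 and 193 TPM in WT and 285, 313 and 276 TPM in KO, without overlap and with a difference of 1.26 (SE 0.32) that was 1.21 without KO replicate 2. mt-Nd1 did not overlap either, at 2883, 4664 and 4723 and 5357, 7596 and 5062 TPM. Nuclear oxidative phosphorylation genes had a higher KO mean in 67 of 69, against 21.6% of all genes (median 0.30, 0.14 without KO replicate 2), yet a median of -0.074 without both deviating libraries. The exceptions were Cox6a1 and Cox8a, the isoforms of cytochrome oxidase subunits that are not specific to muscle. Cox6a1 was at 873, 616 and 595 TPM in WT and 561, 242 and 435 TPM in KO. Cox8a was at 751, 520.0 and 475 TPM in WT and 470.0, 203 and 419 TPM in KO, and both were lower in KO without overlap. Ndufa2, a complex I subunit, was higher without overlap at 338, 411 and 353 and 446, 515 and 426 TPM. The 28 fatty acid oxidation genes had medians of 0.28 and 0.063, and -0.15 without both libraries. Ucp3 overlapped at 15.7, 35.1 and 75.8 and 45.1, 75.5 and 92.8 TPM.

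Ppp1r3c, Ppp1r3a and Phkg1, which act on glycogen, had higher values in every KO library than in any WT library. The 27 tested glycolysis and glycogen genes had a median of 0.40 (0.25 without KO replicate 2), with 21 higher KO means, against 21.6% of all genes, and 6 lower ones. These 3 genes were those at an unadjusted p under 0.05, against 1.06% of all genes higher, and without KO replicate 2 there was 1, against 0.718%. The 3 were also the members higher without overlap, against 2.62% of all genes, and 2 were lower without overlap, against 12%. Ppp1r3c, which targets protein phosphatase 1 to glycogen, stood at 23.8, 55.6 and 59.2 TPM in WT and 89.6, 237 and 145 TPM in KO, a difference of 1.74 (SE 0.46) and of 1.39 without KO replicate 2. The muscle-type targeting subunit Ppp1r3a was at 3.06, 6.21 and 4.12 TPM in WT and 6.71, 10.00 and 8.45 TPM in KO. Phkg1, the catalytic subunit of phosphorylase kinase, was at 38.95, 71.7 and 86.9 and 89.1, 226 and 147 TPM. The difference was 1.19 for Phkg1 and 0.81 for Ppp1r3a, or 0.87 and 0.68 without KO replicate 2. For all 3 genes uninjured muscle was higher still, with Ppp1r3c at 261 ± 43.3 TPM. The lower members, named after their values were seen, were the glycolytic enzymes Hk1 and Eno1. Hk1, a hexokinase, was at 33.4, 27.8 and 30.1 TPM in WT and 26.6, 11.8 and 21.2 TPM in KO. Eno1, the enolase of most tissues, was at 1071, 622 and 575 TPM in WT and 542, 184 and 546 TPM in KO.

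Several genes of fatty acid synthesis and fat storage were higher in KO. Of 31 tested adipocyte and lipid storage genes 25 had a higher KO mean, against 21.6% of all genes. At an unadjusted p under 0.05, 7 were higher, against 1.06% of all genes, and 4 were higher without overlap, against 2.62%. At that p, 3 were higher without KO replicate 2, against 0.718% (median 0.49, 0.22 without KO replicate 2, 0.24 without both). Thrsp, a nuclear regulator of lipogenesis, stood at 12.2, 24.8 and 16.2 TPM in WT and 32.2, 55.05 and 40.7 TPM in KO, a difference of 1.24 (SE 0.32), or 1.04 without KO replicate 2. Scd1, the desaturase that makes monounsaturated fatty acids, was at 60.1, 37.3 and 22.3 TPM in WT and 88.1, 106 and 61.1 TPM in KO, a difference of 1.15 (SE 0.39), or 0.97. Pck1, which feeds glyceroneogenesis in fat cells, was at 3.27, 2.43 and 1.21 and 6.57, 20.9 and 5.37 TPM and differed by 1.68 (SE 0.51), or 1.12. In these 3 genes the groups did not overlap. The defining adipocyte genes did overlap. Adipoq, adiponectin, was at 47.04, 12.7 and 10.3 TPM in WT and 36.4, 58.99 and 24.2 TPM in KO. Plin1, the lipid droplet coat, was at 11.8, 2.54 and 2.16 and 8.47, 20.8 and 6.49 TPM. WT replicate 1 was above KO replicates 1 and 3 for both. Plin4 read 11.1, 13.7 and 22.1 and 22.8, 66.3 and 21.7 TPM.

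Cholesterol synthesis genes were on the lower side by a small amount. Of 20 genes 17 had a lower KO mean, against 78.4% of all genes, and 8 were lower without overlap, against 12%, with medians of -0.39 and -0.37 and -0.21 without both deviating libraries, but the median was -0.052 after median-of-ratios scaling, in which the all-gene shift is removed. Dhcr7, the last enzyme of the pathway, was at 14.01, 11.2 and 11.6 TPM in WT and 9.05, 6.27 and 7.87 TPM in KO. In neither this gene nor Cyp51, the sterol demethylase, did the groups overlap. Cyp51 was at 10.5, 7.24 and 8.98 and 6.88, 5.19 and 3.09 TPM.

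**Figure D5:**
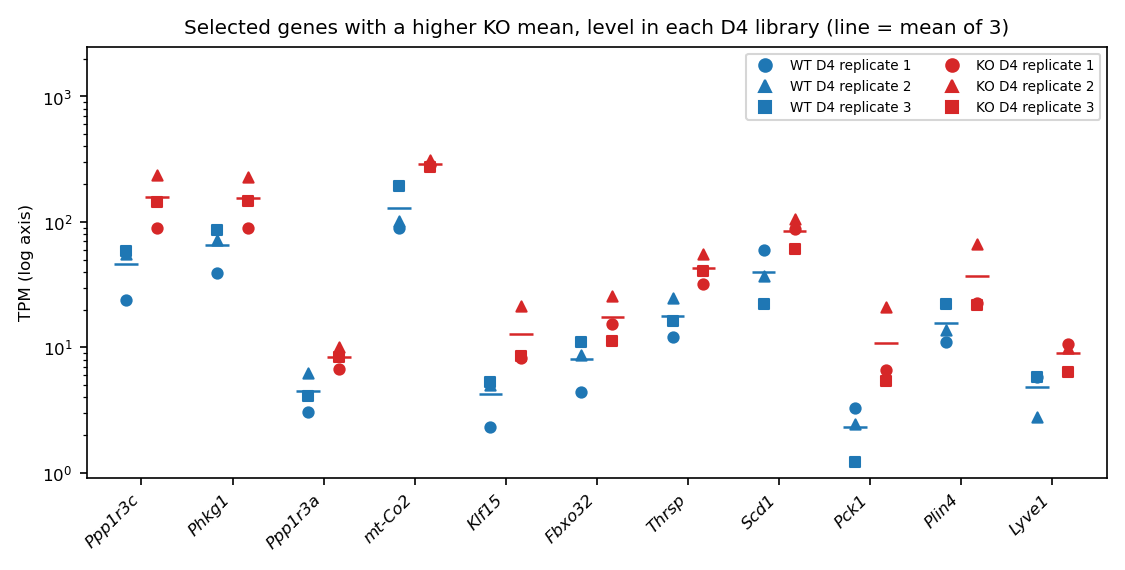
TPM on a log axis of 11 genes with a higher KO mean in each of the 6 D4 libraries, WT blue and KO red, circle, triangle and square for replicates 1, 2 and 3; horizontal lines are means of 3. All except Plin4 show each KO library above each WT library, Ppp1r3c with 89.6, 237 and 145 TPM against 23.8, 55.6 and 59.2 TPM.

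Genes that mark other tissues varied with single libraries. The summed level of nerve genes was highest in KO replicate 2. Mbp, a myelin protein, was at 40.9, 19.7 and 80.1 TPM in WT and 78.00, 356 and 37.4 TPM in KO, with the same library highest. The 12 listed genes summed to 321, 211 and 518 TPM in WT and to 532, 1770 and 276 TPM in KO (median difference 0.58, 0.12 without KO replicate 2). Of 20 exocrine pancreas genes only Cela1 and Ctrb1 were tested, and the whole list summed to 8.49 to 26.0 TPM in WT and to 12.5, 99.4 and 24.8 TPM in KO. Ctrb1 was at 9.02, 0.94 and 2.01 and 2.52, 27.5 and 7.29 TPM and overlapped. Cela1 was at 14.2, 6.12 and 4.64 and 8.41, 9.78 and 4.56 TPM, and all other members were below the filter (median of the 2 tested 0.62, 0.12 without KO replicate 2). Erythrocyte genes summed to 898, 2976 and 4336 TPM in WT and to 1916, 4687 and 670 TPM in KO (median of 5 tested -0.32, -0.98 without KO replicate 2). Hba-a1, an alpha-globin gene, was at 116, 348 and 502 and 237, 540.4 and 80.1 TPM. The 10 epidermal genes together stayed between 5.88 and 9.23 TPM in all 6 libraries (median of 3 tested -0.033, -0.0011 without KO replicate 2). The part of these tissues in the differences above was not tested.

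Stress and atrophy genes held separations in both directions. Klf15, a glucocorticoid- and fasting-induced factor of muscle, was at 2.34, 5.04 and 5.34 TPM in WT and 8.22, 21.5 and 8.61 TPM in KO, a difference of 1.32 (SE 0.43), or 0.90 without KO replicate 2. The atrophy ubiquitin ligase Fbxo32 was at 4.39, 8.72 and 11.1 and 15.3, 25.6 and 11.3 TPM with the lowest KO value just above the highest WT value. Trim63, a second such ligase, overlapped at 59.97, 85.8 and 117 and 113, 169.7 and 124 TPM. Of the 19 atrophy and denervation genes, 4 were higher without overlap, against 2.62% of all genes, and 2 were lower, against 12%. Those lower, named after their values were seen, were Musk, the receptor kinase of the neuromuscular junction, at 10.4, 7.87 and 7.31 and 6.21, 3.18 and 7.22 TPM, and Cdkn1a, the cell cycle inhibitor p21, at 420.3, 217 and 210.2 and 191, 63.8 and 178 TPM. The list had a median of -0.23, 0.02 without KO replicate 2 and 0.096 after median-of-ratios scaling. Chac1, a glutathione-degrading enzyme of the integrated stress response, read 2.42, 3.79 and 4.63 TPM in WT and 8.45, 7.05 and 7.02 TPM in KO without overlap, a difference of 0.91 (SE 0.27), or 0.95 without KO replicate 2. It was the 1 member of that list higher without overlap, against 2.62% of all genes, whereas 3 of the 14 tested were lower without overlap, against 12%. The list's median was -0.55 (-0.22 without KO replicate 2). Those 3 were also named after their values were seen. Asns, asparagine synthetase, was at 22.1, 12.96 and 13.9 TPM in WT and 11.4, 2.32 and 8.82 TPM in KO. Sesn2, a stress-induced inhibitor of mTORC1, was at 8.42, 5.25 and 4.21 TPM in WT and 4.08, 2.27 and 3.39 TPM in KO. Atf4, the transcription factor of the response, was at 153, 125 and 125 TPM in WT and 124, 125 and 102 TPM in KO, close together, and its difference of -0.20 became 0.16 after median-of-ratios scaling. The heat shock list had medians of -0.29 and -0.18 and of 0.061 after that scaling, and the lysosomal list of -0.51 and -0.22.

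Among annotated genes with a mean of at least 5 TPM in a group, the 8 of lowest p in each direction held several predicted genes, and none passed adjustment. The lowest p among them belonged to Gm38182, a predicted gene, at 7.75, 9.05 and 5.34 TPM in WT and 1.35, 1.05 and 1.17 TPM in KO (difference -1.91, SE 0.26, and -1.87 without KO replicate 2). Among other lower genes with no overlap were Gm23119, an entry of 140 bases, at 14.9, 13.1 and 26.3 and 2.98, 2.12 and 0.41 TPM, and Gm44850 at 6.22, 3.66 and 5.25 and 1.03, 0 and 1.14 TPM. Eps8l1, an actin regulator, was lower at 5.69, 7.02 and 5.97 and 1.31, 2.75 and 2.14 TPM. Gstt2, a glutathione transferase, was lower at 14.9, 12.2 and 10.9 and 6.88, 5.64 and 4.97 TPM. Higher without overlap were St6gal2, a sialyltransferase, at 0, 1.43 and 0 TPM in WT and 8.80, 14.8 and 4.20 TPM in KO, and the tetraspanin Tspan8 at 6.98, 11.98 and 8.71 and 18.2, 22.4 and 19.7 TPM. The entry 2310001H17Rik was at 13.2, 13.7 and 11.5 and 20.3, 25.7 and 26.1 TPM. Ddit4l, an inhibitor of mTORC1 signalling, was at 17.8, 29.2 and 34.04 and 50.5, 99.9 and 60.1 TPM. The largest difference among them was 5.45, or 5.91 without KO replicate 2, for an entry of 105 bases that carries the name Ddit3, at 7.13, 0 and 0 TPM in WT and 88.1, 45.2 and 163 TPM in KO. The 890-base entry of Ddit3, the stress-induced factor CHOP, was level at 22.4, 23.03 and 19.6 and 20.9, 19.5 and 19.5 TPM, and TPM of so short an entry rests on few reads.

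The Dynlt1 genes, copies of a dynein light chain on chromosome 17, and 2 further loci, Tmem181b-ps and Nnt, were lower in KO. With 20.9% of all genes lower and 3.58% higher at an unadjusted p under 0.05 in a fit of all 8 groups of injured muscle, Dynlt1b was the 1 gene called there, at an adjusted p of 0.045 (limma). That fit takes its spread from all days, and the D4 libraries differed more among themselves than those of most other days. Without KO replicate 2 it called 0 genes, and in the fit of D4 alone the adjusted p of Dynlt1b was 0.54 (limma). Dynlt1b was at 268, 219 and 207 TPM in WT and 123.10, 60.6 and 109 TPM in KO, a difference of -1.29 (SE 0.31), or -0.98 without KO replicate 2. Dynlt1f was at 125, 88.7 and 85.5 and 85.5, 34.2 and 69.8 TPM, without overlap but with the lowest WT and highest KO values nearly equal. Dynlt1a, at 10.3, 6.23 and 6.33 and 8.66, 3.79 and 5.68 TPM, overlapped. Dynlt1c, at 12.3, 10.9 and 7.98 and 8.84, 4.48 and 8.58 TPM, overlapped too. Of the stretches of 50 bases in Dynlt1b transcripts, 83.2% also occur in another of the 4 copies, so reads could be divided among them. The sum of the 4 copies was 415, 324 and 307 TPM in WT and 226, 103 and 193 TPM in KO (difference -1.06, or -0.72 without KO replicate 2). The pseudogene Tmem181b-ps was at 11.3, 8.27 and 6.73 TPM in WT and 4.61, 2.19 and 3.83 TPM in KO. Nnt, the mitochondrial transhydrogenase that carries a deletion in the C57BL/6J subline, was at 21.1, 29.3 and 26.8 TPM in WT and 14.9, 19.97 and 10.4 TPM in KO, a difference of -0.76, or -0.98 without KO replicate 2. The median of the 7 tested loci of the list was -0.72 (-0.34 without KO replicate 2), and it was 0.11 at D1 and -0.60 at D7. The differences at D1, D7 and D14 were -0.82, -1.02 and -0.79 for Dynlt1b and -0.57, -1.24 and -0.83 for Nnt, while Dynlt1a, Dynlt1c and Dynlt1f had differences of 0.13, 0.18 and 0.11 at D1.

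The difference between genotypes at D4 was set against that at D1 and at D7 by an interaction term. No gene passed adjustment for D4 minus D1 (lowest adjusted p = 0.19, limma), where 3480 genes (24.5%) had an unadjusted p under 0.05, nor for D4 minus D7 (lowest adjusted p = 0.97, limma), where 382 (2.69%) had. With KO replicate 2 left out the counts called were again 0, and an unadjusted p under 0.05 was reached by 1267 genes (8.92%) and 346 (2.44%). For pan-leukocyte genes the median difference was 0.65 at D1, -1.17 at D4 (-0.32 without KO replicate 2) and -0.62 at D7. For immediate early genes it was 0.12, -0.73 and -0.41, and for mature myofibre genes -0.50, 0.64 and 0.32. The pan-leukocyte means of the D1 libraries overlapped, at 6.70, 7.47 and 5.31 log2 units in WT and 7.38, 6.68 and 7.47 in KO. WT replicate 3 was the lowest of them, so the D1 difference too depends on single libraries. Egr1, Fos and Junb differed by -0.53, -0.69 and -0.53 at D7.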

How the data were processed

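RNA-seq was performed on whole injured muscle. Per the study's methods, RNA was extracted with TRIzol and sequenced as paired-end libraries on an Illumina instrument. In those methods the uninjured libraries belonged to a first batch, which also held injured muscle, and the WT and KO time course formed a second. The WT D1 libraries were quantified with both sets, so their batch cannot be told from the sources used here. The labels name a SMARTER mRNA kit and the submitters' processing notes the mm10 build. The aligner, the quantification tool and the annotation are not given in the sources used here. The authors deposited TPM values per gene, scaled to the same total in each library, and group means, which were not used. Read counts cannot be recovered from TPM, so depth per library is unknown here and intervals for counting error are left out. Because the values of a library sum to a constant, a few abundant genes that rise lower all others.

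Differences were fitted on log2(TPM + 1) with limma 3.58.1 (R 4.3.3, moderated statistics with a mean-variance trend) on the 6 D4 libraries, over the 14209 entries with at least 1 TPM in at least 3 libraries, with Benjamini-Hochberg adjustment and a threshold of 0.05. The script was tested on simulated data, where recovery of set differences was required only at a spread smaller than the real one. That run checks the code and was not used to judge how many genes this design could call. P-values measure the spread between these samples. A symbol with several entries was taken at its longest. Named genes are Gsdme, the 8 of lowest p in each direction that had a mean of at least 5 TPM, no overlap and 1 direction in each leave-one-out, the first 3 and the 3 of lowest p of each list, and the Dynlt1 cluster; some genes that this rule names are not reported here. The members and the 33 gene lists were chosen with earlier results of these data known, so no test over a list is given: a list is described by its counts and median beside those of all genes. Alternatives were the omission of libraries, all 8 groups in the fit, a replicate block, 2 scalings, removal of 50 abundant genes, a pseudocount of 0.1 and other filters. Promoters were taken from RefSeq GRCm38.p6.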

Additional observations from a re-analysis of the deposited data

How the results depend on the processing

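Of 17 alternatives, 16 were planned. The count of genes called stayed at 0 except in the 2 noted below, and Gsdme kept its direction in all. Of 1773 differences of the 105 other named entries, 1723 kept direction and side of the threshold; of 560 list medians 514 moved by less than 1 SD of the libraries of a group. The causes of the changes were not tested. Without KO replicate 2 and WT replicate 1, a choice made after seeing the data, there were 6 called (among them Egr1, adjusted p = 0.044, and the 105-base Ddit3 entry, by limma), 240 genes higher at an unadjusted p under 0.05 and 1715 genes higher without overlap. List medians there moved by more than 1 SD to -0.013 for gasdermin and pyroptosis, -0.35 for immediate early, 0.23 for neutrophil, 0.14 for recruited monocyte, 0.028 for chemokines, 0.067 for pan-leukocyte and macrophage, 0.036 for lymphocyte, 0.30 for antigen presentation class II, -0.021 for proliferation, -0.074 for oxidative phosphorylation, nuclear, 0.0086 for mitochondrially encoded, 0.0803 for glycolysis and glycogen, -1.65 for erythrocyte, -0.077 for integrated stress response, 0.075 for atrophy and denervation and -0.17 for Dynlt1 cluster and strain-variable loci. The sign there reversed for Casp1 0.50, Il18 0.0012, Ptprc 0.28, Itgam 0.083, Adgre1 0.13, S100a8 0.20, S100a9 0.30, Ccr2 0.46, Ly6c2 0.067, Spp1 0.16, Gpnmb 0.057, H2-Aa 0.39, Ccl2 0.33, Mrc1 0.24, Mki67 0.34, Top2a 0.35, Acta1 -0.14, Cela1 0.19 and Dynlt1a 0.14. Without the 50 most abundant genes there were 325 genes higher at an unadjusted p under 0.05 and 733 genes higher without overlap. List medians there moved by more than 1 SD to -0.20 for cholesterol synthesis. The sign there reversed for Cela1 0.16, Ddit3 0.095 and Atf4 0.013. With all 8 groups in the fit there was 1 called (Dynlt1b), 509 genes higher at an unadjusted p under 0.05 and 2966 genes lower at an unadjusted p under 0.05. With all 8 groups in the fit and without KO replicate 2 list medians moved by more than 1 SD to 0.02 for atrophy and denervation and -0.34 for Dynlt1 cluster and strain-variable loci. The sign there reversed for H2-Aa 0.20. With a filter at 5 TPM there were 89 genes higher at an unadjusted p under 0.05 and 244 genes lower at an unadjusted p under 0.05. List medians there moved by more than 1 SD to -1.30 for lymphocyte and -0.20 for integrated stress response. Under median-of-ratios scaling there were 397 genes higher at an unadjusted p under 0.05, 921 genes higher without overlap and 1001 genes lower without overlap. List medians there moved by more than 1 SD to -0.39 for immediate early, 0.66 for oxidative phosphorylation, nuclear, 0.76 for glycolysis and glycogen, -0.052 for cholesterol synthesis, 0.20 for fibro-adipogenic progenitor, 0.22 for endothelial, 0.25 for epidermis, 0.061 for heat shock and chaperone, 0.096 for atrophy and denervation and -0.37 for Dynlt1 cluster and strain-variable loci. The sign there reversed for Pecam1 0.089, Cela1 0.30, Hba-a1 0.0398, Ddit3 0.24 and Atf4 0.16. Without KO replicate 2 and with median-of-ratios scaling there were 212 genes lower at an unadjusted p under 0.05 and 1252 genes higher without overlap. List medians there moved by more than 1 SD to -0.36 for immediate early, 0.20 for antigen presentation class II, 0.11 for fibro-adipogenic progenitor, -0.096 for integrated stress response, 0.15 for atrophy and denervation and -0.20 for Dynlt1 cluster and strain-variable loci. The sign there reversed for Casp1 0.10, Ccr2 0.12, H2-Aa 0.34, Pdgfra 0.071, Ddit3 0.044 and Dynlt1a 0.056. With no filter there were 282 genes higher at an unadjusted p under 0.05, 752 genes lower at an unadjusted p under 0.05 and 621 genes higher without overlap. Under quantile normalization there were 394 genes higher at an unadjusted p under 0.05, 850 genes higher without overlap and 1084 genes lower without overlap. List medians there moved by more than 1 SD to -0.42 for immediate early, -0.099 for cholesterol synthesis, 0.12 for fibro-adipogenic progenitor, 0.14 for endothelial, 0.26 for epidermis and 0.092 for atrophy and denervation. The sign there reversed for Acta1 -0.16, Cela1 0.26, Ddit3 0.19 and Atf4 0.024. With a replicate block there were 251 genes higher at an unadjusted p under 0.05 and 1438 genes lower at an unadjusted p under 0.05. Leaving out 1 library at a time gave 94 to 217 genes higher and 144 to 2018 lower at an unadjusted p under 0.05, and 564 to 860 higher and 1845 to 5660 lower without overlap. It gave list medians of -1.42 to 0.18 for neutrophil (0.18 without WT replicate 1), -0.41 to 0.02 for atrophy and denervation and -0.93 to -0.34 for Dynlt1 cluster and strain-variable loci (both highest without KO replicate 2). The sign reversed for Acta1 (-0.024 to 0.57), Cd163 (-0.12 to 0.36, with -0.024 without KO replicate 3), Cela1 (-0.33 to 0.38, with 0.25 without KO replicate 3), H2-Aa (-0.97 to 0.20), Hba-a1 (-0.98 to 0.39, with 0.12 without WT replicate 3) and S100a9 (-2.69 to 0.17). Deviations of same-numbered KO and WT libraries correlated at 0.47, 0.20 and -0.38 for numbers 1, 2 and 3. With 3 libraries in each group and 1 deviating library in each, these correlations cannot decide whether the numbers pair the samples. With the replicate block no gene was called, and the lowest adjusted p was 0.39 (limma). Library weights did not converge on 6 libraries and were not run. TPM keeps no read depth, so depth limits could not be given.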
